A study of Canis lupus familiaris with 23 samples.

Results

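Genes of glycolysis and of the response to low oxygen were followed across dog skin, hair follicles, interfollicular epidermis and epidermal organoids, in 23 libraries of 12 groups. The set named 33 genes, chosen by symbol among the 20444 named entries of the tissue and expansion files. It held 15 glycolytic enzymes, 2 lactate dehydrogenase subunits, 4 sugar and lactate transporters, 3 regulatory kinases, 3 oxygen sensing genes and 6 hypoxia response genes. By symbol 31 were found. LDHA was found only through the gene ID of an entry with a provisional locus name, and its values are given beside the counts, which cover the 31. SLC2A3 was not analysed here. Of the 31, 30 had enough counts to be tested. The exception was PFKFB4, whose levels lay between 0 and 9.73 CPM (counts scaled to a common library size) in the 23 libraries.

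Glycolysis splits glucose into pyruvate in the cytosol, and lactate dehydrogenase turns pyruvate into lactate, which leaves the cell through monocarboxylate transporters. When oxygen is scarce, prolyl hydroxylases no longer mark the factor HIF1A for destruction, and it raises the transcription of many glycolytic genes together with genes for vessel growth, acid handling and mitochondrial turnover. Skin is a tissue with a low oxygen supply, and keratinocytes are known for a high rate of glycolysis. Growth factor signals also raise these genes without any change in oxygen.

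The tissue groups were whole skin, hair follicles in a mix of growing and resting phase, and interfollicular epidermis, with 2 libraries each. Organoids were collected as bulk cells at day 7 and are called early for passages 0 to 1 and later for 3 to 6. Organoids grown from follicles and given a Tgf-beta inhibitor had 3 libraries in the early and 2 in the later group. Without the inhibitor each of these groups had 2 libraries. Interfollicular organoids, which all received the inhibitor, had 1 library in each group and so no replicate. Cultures outside differentiation medium are called expansion medium here. Later follicle organoids were also kept in differentiation medium, in that medium without Noggin (a BMP antagonist) and R-Spondin-1 (an enhancer of Wnt signals), or in that medium also without Forskolin (which raises cAMP), with 2 libraries each. For these 6 libraries the labels name no inhibitor. The labels do not say whether replicates are separate dogs, cultures or preparations, so p-values measure the spread between these libraries, which may be technical.

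Total counts ran from 86301 (epidermis replicate 2) to 4822410 (early follicle organoids with inhibitor, replicate 3). A gene with 0 counts could therefore stand at up to 0.691 CPM in the deepest library and up to 23.4 CPM in the shallowest (3 counts on the scaled library size, counting error only). In tissue the hair shaft and suprabasal markers followed the labels: hair shaft genes summed to 5655 to 7003 CPM in follicles and 54.5 to 452 CPM in epidermis, suprabasal genes to 13560 to 17750 CPM in epidermis against 2892 to 3362 CPM in follicles. Epidermis also held transcripts of dermal cells, with the fibroblast marker DCN at a mean of 1142 CPM. Between follicles and epidermis 1 of 6 tested fibroblast markers and 0 of 6 tested muscle markers were called. However, 4 of 6 adipocyte markers (median log2 difference 3.31) and 1 of 4 tested melanocyte markers were higher in follicles. Of 4 tested immune markers 1 was lower there. Basal keratinocyte genes summed to at least 27540 CPM in every organoid library. In expansion organoids hair shaft genes ran against the source label, at 48.8 to 69.1 CPM in the 9 follicle libraries and at 136 and 849 CPM in the 2 interfollicular libraries. Reads were counted at the 3′ ends of transcripts. GPI, PFKM, ALDOA, GAPDH, PGK1, ENO1, PKM, LDHA, LDHB, SLC16A1 and PDK1 carried fractions of counts in some libraries, as happens where reads are shared with near-identical copies, and their levels are uncertain to that extent.

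The 31 genes took a small part of tissue RNA and a larger part of organoid RNA. Their share of all counts was 0.333 to 0.573% in the 6 tissue libraries, 0.874 to 2.562% in the 11 expansion libraries and 1.444 to 2.318% in the 6 differentiation libraries. The tissue and organoid ranges did not overlap. The 15 glycolytic enzymes summed to 1914 to 2992 CPM in tissue, the 3 listed transporters to 38.9 to 63.3 CPM and the 6 hypoxia response genes to 170 to 448 CPM. In expansion organoids the same sums were 7553 to 22830, 252 to 1748 and 282 to 5318 CPM, so the hypoxia response genes, unlike the enzymes and transporters, reached down into the tissue range.

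**Figure D1:**
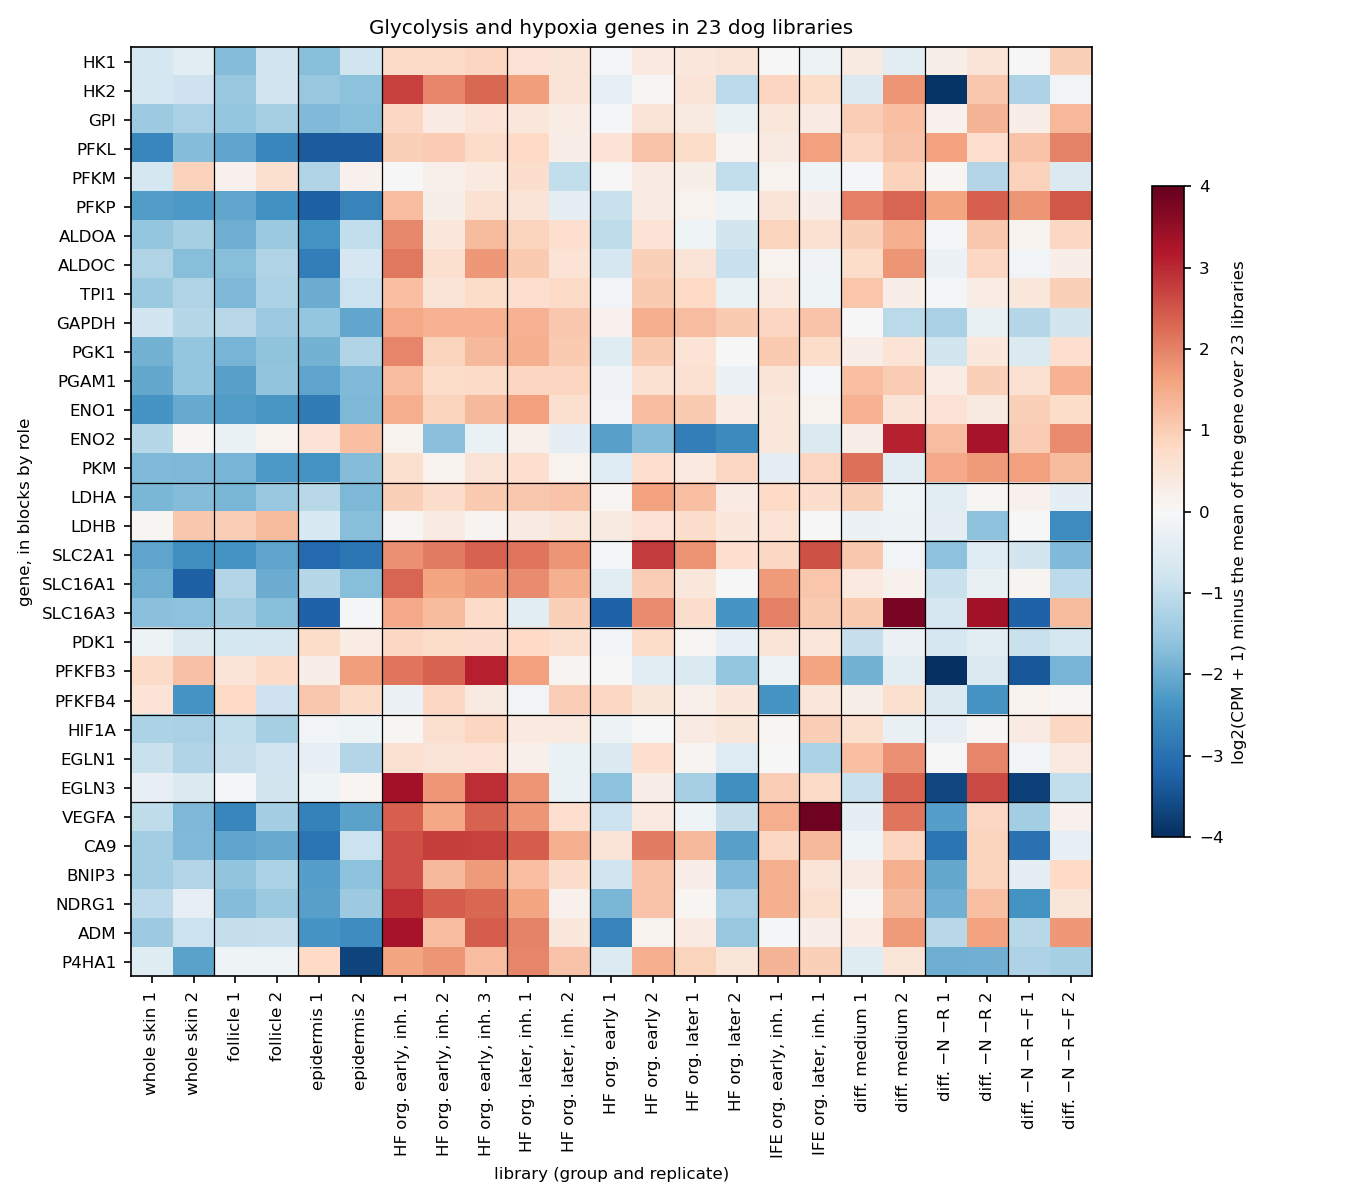
Level of each gene (rows, in blocks by role) in each of the 23 libraries (columns, in blocks by group; HF follicle, IFE interfollicular epidermis, inh. with the Tgf-beta inhibitor, −N −R −F without Noggin, R-Spondin-1 and Forskolin), as log2(CPM + 1) minus the mean of the gene over all libraries. Colours saturate at 4 log2 units on either side, and most genes are blue in the 6 tissue columns and red in the organoid columns. PFKM, ENO2, LDHB, PFKFB3 and PFKFB4 are among the genes outside that pattern, and EGLN3, PDK1 and P4HA1 depart from it in some organoid columns.

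Follicle organoids were compared with hair follicles, to ask what culture in expansion medium changed. Of 30 tested genes 22 were higher in the organoids and 0 lower, and the median log2 difference was 2.14. Among all 9888 tested genes 28.0% were called (9.01% higher and 19.0% lower), with a median difference of 0. By role, 13 of 15 glycolytic enzymes, 2 of 3 transporters, 1 of 2 regulatory kinases, 1 of 3 oxygen sensing genes and 5 of 6 hypoxia response genes were higher. A gene was called at a Benjamini-Hochberg adjusted p under 0.05 in edgeR's quasi-likelihood test over all genes, and ± gives the standard error.

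The enzymes from GAPDH to PKM, which turn triose phosphate into pyruvate, were higher in organoids, with ENO2 as the exception. ENO1, the common enolase, stood at 423 and 396 CPM in the follicle libraries and at 1848 to 6240 CPM (median 4089) in the 9 organoid libraries. Every organoid library lay above both follicle libraries, and the log2 difference was 3.25 ± 0.48 (edgeR adjusted p = 1.63e-05). GAPDH, the dehydrogenase that makes the first NADH of the pathway and a gene often used as a reference, stood at 212 and 166 CPM in follicles and at 521 to 1305 CPM (median 1202) in organoids. Its groups did not overlap either, with a difference of 2.48 ± 0.41 (edgeR adjusted p = 7.52e-05). PGK1 and PKM, which make ATP, rose by 2.6 ± 0.49 and 2.49 ± 0.53. PGAM1, the mutase between them, rose by 2.43 ± 0.39, and TPI1, which interconverts the 2 triose phosphates, by 2.15 ± 0.42.

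Upstream, HK1 and HK2, the hexokinases that trap glucose as its phosphate, were both higher. HK1 rose by 1.66 ± 0.34 with all organoid libraries above both follicle libraries. HK2, the form known to respond to HIF1A, stood at 17.2 and 29.1 CPM in follicles but ranged from 24.0 to 344 CPM (median 73.7) in organoids. Its groups overlapped, and the difference of 1.95 ± 0.70 (edgeR adjusted p = 0.0421) lost its call under RLE factors, with library totals, in DESeq2 and without any of 5 single libraries. GPI rose by 1.76 ± 0.37, and the aldolases ALDOA and ALDOC by 2.11 ± 0.50 and 2.13 ± 0.56.

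Not all forms of an enzyme moved together. Of the phosphofructokinases, which commit sugar to glycolysis, PFKP, the platelet form, stood at 119 and 93.1 CPM in follicles and 267 to 1175 CPM (median 585) in organoids, and rose by 2.42 ± 0.43 (edgeR adjusted p = 0.000167). PFKL, the liver form, had 1 count in each follicle library and 10 to 68 counts in organoids, and rose by 3.99 ± 0.65 (edgeR adjusted p = 7.70e-05). PFKM, the muscle form, stood at 7.93 and 11.4 CPM in follicles and 2.95 to 11.9 CPM in organoids. Its difference of -0.42 ± 0.53 was not called, and the groups overlapped.

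ENO2, the enolase best known from neurons and a HIF1A target, stood at 7.93 and 10.8 CPM in follicles (6 and 17 counts) and at 0.569 to 11.2 CPM (median 2.32) in organoids, against the direction of ENO1. Its difference was -1.59 ± 0.68 (edgeR adjusted p = 0.0866). It was called lower only without the filter on low counts (adjusted p = 0.0199) and in a fit of the compared groups alone (adjusted p = 0.0274).

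The lactate dehydrogenase subunits also parted. LDHA, the subunit of tissues that make lactate, stood at 382 and 474 CPM in follicles and at 1421 to 4120 CPM (median 2777) in organoids, and rose by 2.63 ± 0.45 (edgeR adjusted p = 0.000106). LDHB, the subunit of tissues that use lactate, stood at 206 and 253 CPM in follicles and at 107 to 169 CPM (median 135) in organoids. Every organoid library lay below both follicle libraries, yet the difference of -0.74 ± 0.36 was not called (edgeR adjusted p = 0.128). With RLE factors, with library totals and in a fit of the compared groups alone it was called lower (adjusted p 0.00676 to 0.0488).

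Ratios between forms of an enzyme within a library do not depend on scaling, and 8 of 9 planned ratios could be computed, in 11 expansion organoid libraries against 6 tissue libraries (exact two-sided permutation test over libraries, 12376 relabellings, p adjusted over the 8). The test relabels libraries freely, although they differ in tissue kind, organoid source, passage and inhibitor. Its p-values rest on treating them as alike. The log2 ratio of PFKP to PFKM was 6.30 ± 0.61 (SD, n = 11) in organoids and 3.48 ± 0.76 (SD, n = 6) in tissue, a difference of 2.83 (exact permutation adjusted p = 0.000323). For ENO1 to ENO2 it was 9.66 ± 1.49 and 5.22 ± 0.87, a difference of 4.44 with the same adjusted p, and both p-values were the smallest this design can give. In neither ratio did an organoid library fall within the tissue range. In follicle-derived material alone, with only 2 follicle libraries to relabel, the differences were 2.93 and 4.70 (exact permutation adjusted p = 0.0485 for each). Both rest on the smallest unadjusted p that this smaller set can give.

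The LDHA to LDHB ratio was 4.22 ± 0.43 (SD, n = 11) in organoids and 1.86 ± 1.20 (SD, n = 6) in tissue, a difference of 2.36 (exact permutation adjusted p = 0.000431). The tissue libraries fell apart by kind: 0.89 to 1.81 in whole skin and follicles, but 3.18 and 3.49 in epidermis, the higher of which lay above the lowest organoid value of 3.39. In follicle-derived material alone the difference was 3.33 (exact permutation adjusted p = 0.0485), again from the smallest unadjusted p that this set can give. HK2 to HK1 (0.61), PFKP to PFKL (-0.55), ALDOA to ALDOC (0.01), SLC16A3 to SLC16A1 (-1.13) and PFKFB3 to PFKFB4 (-0.23) gave differences with adjusted p from 0.239 to 0.957, also from exact permutation. In follicle-derived material alone HK2 to HK1 gave 0.29 (exact permutation adjusted p = 0.914), PFKP to PFKL -1.08 (adjusted p = 0.0727) and PFKFB3 to PFKFB4 -0.40 (adjusted p = 0.914). PFKL had 0 or 1 count in each of the 6 tissue libraries, so its ratio rests on the pseudocount, and with a pseudocount of 1 the difference was -0.0032. In ALDOA to ALDOC, the means were 3.08 ± 0.47 and 3.07 ± 0.34.

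**Figure D2:**
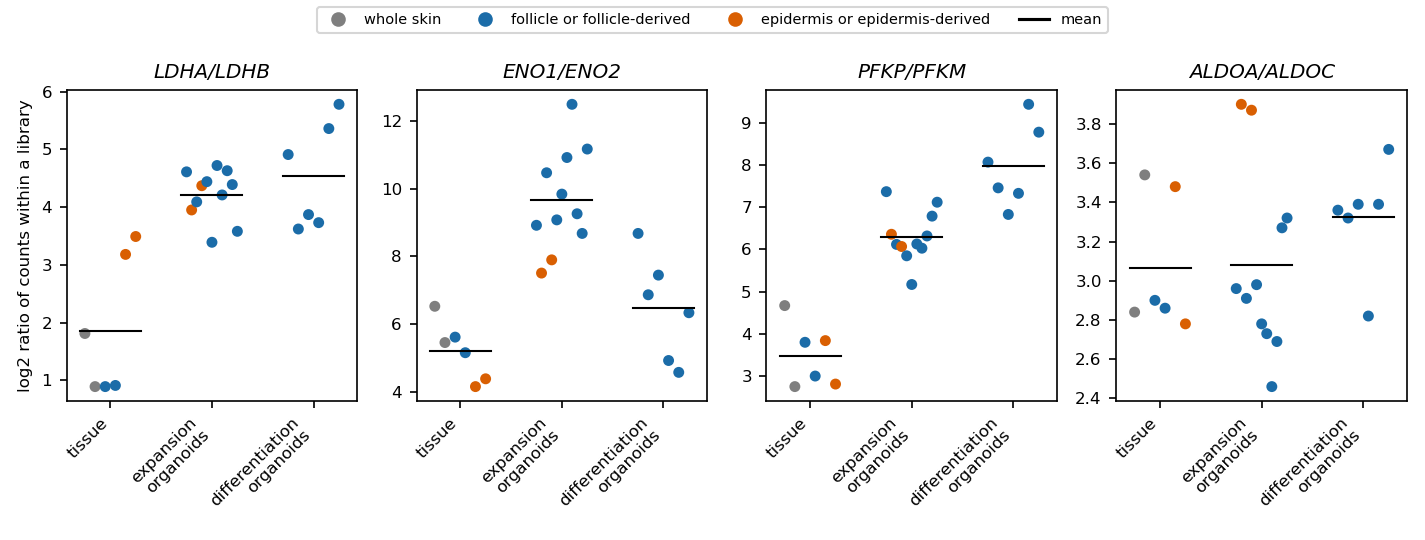
Log2 ratio of counts within each library for 4 pairs of enzyme forms, with libraries as points coloured by source and the mean of each set as a line. Organoids stand above all tissue libraries for PFKP/PFKM and ENO1/ENO2 in expansion medium, epidermis (orange) stands above the other tissues for LDHA/LDHB, and ALDOA/ALDOC has the same mean in tissue and expansion organoids to within 0.01.

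Among transporters, SLC2A1, the main glucose carrier of basal keratinocytes, stood at 44.97 and 53.8 CPM in follicles and 232 to 1659 CPM (median 848) in organoids. The lowest organoid library stood above both follicle libraries, and the difference of 4.11 ± 0.65 was the largest among the tested genes of the set (edgeR adjusted p = 4.65e-05). SLC16A1, which carries lactate in either direction, rose by 2.80 ± 0.47. SLC16A3, the lactate exporter of glycolytic cells, had 2 and 3 counts in follicles and 0 to 76 counts in organoids, and its difference of 2.61 ± 1.35 was not called (adjusted p = 0.159).

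Of the regulatory kinases, PDK1, which shuts pyruvate out of the mitochondria by blocking pyruvate dehydrogenase, stood at 42.3 and 43.1 CPM in follicles and 55.3 to 125 CPM in organoids, and rose by 1.15 ± 0.30 (edgeR adjusted p = 0.00594). PFKFB3, whose product speeds phosphofructokinase, gave -0.06 ± 0.47, with organoid libraries from 10.97 to 301 CPM on both sides of the follicle values of 48.9 and 58.9 CPM.

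Of the oxygen sensing genes, HIF1A rose by 1.48 ± 0.32, from 79.3 and 62.1 CPM to 139 to 286 CPM, without overlap (edgeR adjusted p = 0.00117). The prolyl hydroxylases EGLN1 (0.99 ± 0.42) and EGLN3 (0.82 ± 0.89) were not called. EGLN3 spread widely in organoids, from 18.1 to 1070 CPM. These are transcript levels, and HIF1A is known to be controlled mainly at the protein.

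The hypoxia response genes were spread as widely. CA9, a carbonic anhydrase on the cell surface, stood at 9.26 and 10.1 CPM in follicles and at 8.86 to 302 CPM (median 182) in organoids, and rose by 3.82 ± 0.90 (edgeR adjusted p = 0.00256). VEGFA, the vessel growth factor, rose by 2.59 ± 0.71 without overlap, from 5.29 and 13.9 CPM to 19.0 to 201 CPM. NDRG1 (2.49 ± 0.83), the mitophagy receptor BNIP3 (2.17 ± 0.68) and P4HA1, a collagen prolyl hydroxylase subunit (1.43 ± 0.50), were higher with overlap between the groups. The peptide hormone gene ADM gave 1.72 ± 0.81 (adjusted p = 0.119). In CA9 and BNIP3 the later library without inhibitor, replicate 2, was the 1 organoid library below the follicle range, at 8.86 and 56.1 CPM.

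In 7 lists of neighbouring pathways 14 of 84 tested genes were higher and 11 lower (29.8%), beside 28.0% called among all genes. Of 6 tested pentose phosphate enzymes 3 were higher and 0 lower, with PGD at 1.59 ± 0.33. Of 26 genes of pyruvate dehydrogenase and the citrate cycle 3 were higher and 1 lower: DLAT, a subunit of pyruvate dehydrogenase, rose by 1.45 ± 0.41, while PDK4, a kinase known from fasting, fell by 5.49 ± 0.72. Of 6 other sugar and lactate transport genes 0 were higher and 4 lower, led by TXNIP, an inhibitor of glucose uptake, which fell by 3.11 ± 0.35 (145 against 21.9 CPM). Of 6 other glycolysis and gluconeogenesis genes 1 was higher (TIGAR, 1.85 ± 0.54) and 1 lower (PCK1, the entry enzyme of gluconeogenesis, at -5.05 ± 0.64). Of 11 HIF pathway regulators 1 was higher (TCEB1, the elongin C of the VHL complex, 1.12 ± 0.30).

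Of 21 other HIF target genes 6 were higher, with the carbonic anhydrase CA12 at 2.83 ± 0.49, and 4 lower, with the collagen cross-linker LOX at -3.95 ± 0.51. The medians were 0.35 in this list and 2.33 in the 6 hypoxia response genes, against 0 over all tested genes. LOX is a gene of fibroblasts, whose 6 markers summed to 4308 to 7242 CPM in follicles and 48.3 to 489 CPM in follicle organoids. The part of that shift in LOX or in the other lower genes of the list was not tested.

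The follicle libraries held marker transcripts of other cell types that were lower in the organoids, and these moved with every difference above. All 6 fibroblast, 6 hair shaft and 6 tested muscle markers were lower in organoids, and 4 of 5 tested basal keratinocyte markers were higher. The 6 cycling markers summed to 149 to 155 CPM in follicles and 180 to 444 CPM in follicle organoids. The part of either shift in the differences was not tested. In bulk libraries, fewer cells of a type and less RNA per cell cannot be told apart. Without follicle replicate 1 or without follicle replicate 2 the count of called genes was 14 of 30. With RLE factors or library totals it was 21 (20 higher, and LDHB lower), while the median of all tested genes moved to -0.17 and -0.19 and the calls over all genes from 891 higher and 1875 lower to 615 and 2179, and 594 and 2219. LDHA and 12 of the 22 kept their call in each of 18 alternatives.

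**Figure D3:**
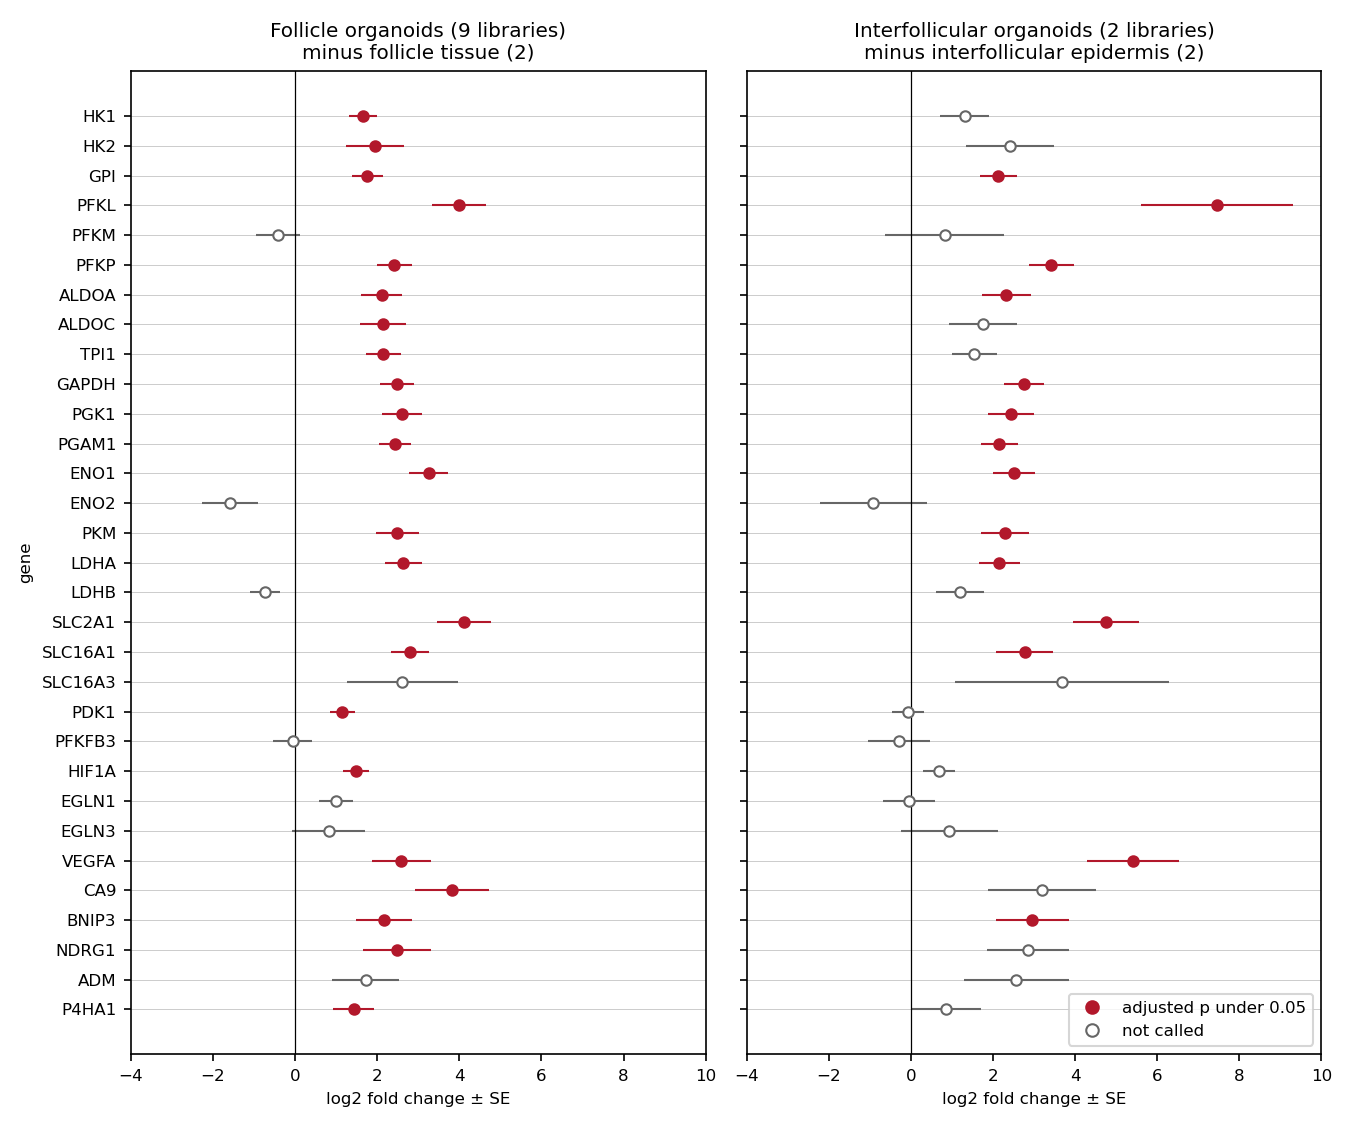
Log2 fold change with its standard error for each tested gene, in follicle organoids against follicles (left) and interfollicular organoids against interfollicular epidermis (right), with filled red points for an edgeR adjusted p under 0.05. Most genes lie near 2 on both sides, SLC2A1 lies above 4 on both, and PFKM, ENO2, LDHB and PFKFB3 lie near or below 0 on the left; the point for PFKL on the right rests on a group with 0 counts.

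Interfollicular organoids were compared with interfollicular epidermis in the same way. Of 30 tested genes 13 were higher and 0 lower, with a median log2 difference of 2.31. Over all 9888 tested genes 11.2% were called (6.73% higher and 4.50% lower), with a median of -0.14. The groups did not overlap in 25 genes with higher organoid values and in 1 with lower values, but there were only 2 libraries on each side and 1 of those of epidermis held 86301 counts. The share of all genes without overlap was not counted, so these numbers have no background beside them.

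SLC2A1 stood at 26.8 and 31.2 CPM in epidermis and at 425 (early) and 1395 CPM (later) in organoids, and rose by 4.76 ± 0.80 (edgeR adjusted p = 0.000524). PFKP stood at 51.1 and 77.9 CPM against 717 and 607 CPM, and rose by 3.42 ± 0.55 (edgeR adjusted p = 0.000336). GAPDH stood at 158 and 109 CPM against 831 and 1019 CPM, and rose by 2.75 ± 0.49 (edgeR adjusted p = 0.00075). These 3 kept their call in every alternative.

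GPI, ALDOA, PGK1, PGAM1, ENO1, PKM and SLC16A1 were also higher, by 2.13 to 2.77. LDHA rose by 2.15 ± 0.50, from 627 and 390 CPM to 2360 and 2190 CPM. PFKL had 0 counts in both epidermis libraries and 11 counts in the organoid libraries together, which makes it at least 2.91-fold higher (3 counts over the group as the floor for epidermis).

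Of the hypoxia response genes VEGFA and BNIP3 were higher. VEGFA stood at 4.86 and 7.79 CPM in epidermis, at 105 CPM in the early organoid library and at 576 CPM in the later one, its highest value in the series, and rose by 5.42 ± 1.12 (edgeR adjusted p = 0.003). BNIP3 rose by 2.96 ± 0.89. CA9 (3.19 ± 1.31), NDRG1 (2.86 ± 1.00) and ADM (2.57 ± 1.28) were not called. HIF1A stood at 146 and 140 CPM in epidermis and 169 and 315 CPM in organoids (0.69 ± 0.39, adjusted p = 0.267), and PDK1 stood at 117 and 85.7 CPM against 101 and 97.1 CPM (-0.07 ± 0.39, adjusted p = 0.945). Neither was called.

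In the neighbouring pathways 10 of 84 tested genes were higher and 5 lower (17.9%), beside 11.2% of all genes. TXNIP was lower here too (-3.06 ± 0.65), with 3 of 6 other sugar and lactate transport genes lower and 1 higher, the transporter chaperone BSG (1.79 ± 0.46). Of 6 pentose phosphate enzymes 2 were higher (PGD, 2.10 ± 0.43), of 26 genes of pyruvate dehydrogenase and the citrate cycle 2 (the succinyl-CoA ligase subunit SUCLA2, 2.41 ± 0.58), and of 11 HIF pathway regulators 2 (TCEB1, 2.36 ± 0.42). Of 21 other HIF target genes 3 were higher (CA12, 4.06 ± 0.73) and 2 lower (the nuclear receptor RORA, -5.10 ± 0.84). No glycogen enzyme and no other glycolysis gene was called among 8 and 6 tested.

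Suprabasal markers summed to 13560 to 17750 CPM in epidermis and to 5336 and 3676 CPM in the organoids, and immune markers to 567 to 639 against 17.5 and 78.9 CPM. Of the markers 5 of 8 suprabasal (median log2 difference -4.03), 5 of 6 muscle (-4.44), 3 of 6 fibroblast (-3.57) and 1 of 4 immune genes tested were lower in organoids. Their part in the differences was not tested. Without epidermis replicate 1, 3 of 30 genes were called, and with library totals 10, while the median of all tested genes moved to -0.70 and the calls over all genes from 665 higher and 445 lower to 389 and 1111 (561 and 532 with RLE factors).

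The difference between the changes in the 2 sources, with inhibitor-treated follicle organoids only, was tested as an interaction. It called 0 of 30 genes, against 3.96% of all tested genes (3.51% higher and 0.455% lower). At an unadjusted edgeR p under 0.05 stood 2 of the 30 genes, beside 1543 of all 9888. The smallest p-values belonged to PDK1 (-1.52 ± 0.50, edgeR adjusted p = 0.103) and LDHB (2.07 ± 0.70, adjusted p = 0.12). LDHB was called in DESeq2 (adjusted p = 0.0364) and in a fit of the compared groups alone (adjusted p = 0.0248), and PDK1 with library totals (adjusted p = 0.0421), which moved the calls over all genes from 347 higher and 45 lower to 304 and 114 and the median from -0.09 to -0.39.

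Levels of both genes in the source tissues were compared directly. LDHB stood at 206 and 253 CPM in follicles, 109 and 219 CPM in whole skin and 68.1 and 31.2 CPM in epidermis. It was 2.08 ± 0.56 higher in follicles than in epidermis (edgeR adjusted p = 0.046), the 1 of 30 genes called there, against 2.79% of all tested genes (2.05% higher and 0.738% lower). That call was lost with RLE factors, with library totals and without any of the 4 libraries, where the adjusted p reached 0.217. PDK1 stood at 42.3 and 43.1 CPM in follicles, 60.7 and 46.2 CPM in skin and 117 and 85.7 CPM in epidermis, a difference of -1.28 ± 0.38 between follicles and epidermis (adjusted p = 0.0809). HIF1A, like PDK1, was highest in both epidermis libraries, with 79.3 and 62.1 CPM in follicles, 64.6 and 64.3 CPM in skin and 146 and 140 CPM in epidermis, and a difference of -1.03 ± 0.39 (adjusted p = 0.183). DESeq2 called both PDK1 (adjusted p = 0.0121) and HIF1A (adjusted p = 0.044). PDK1 was also called with library totals (adjusted p = 0.0247) and in a fit of the compared groups alone (adjusted p = 0.038). With library totals the calls over all genes moved from 203 higher and 73 lower to 146 and 143, and the median from 0.21 to -0.10. Hair shaft, suprabasal and adipocyte markers also differed between these tissues, and their part in the differences was not tested.

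Whole skin was compared with epidermis and with follicles. Epidermis against skin called 0 of 30 genes and 1.56% of all tested genes (0.162% higher and 1.40% lower), and DESeq2 called HIF1A (1.30 higher in epidermis, adjusted p = 0.0337). Another 3 genes of the set had an unadjusted edgeR p under 0.1 there: LDHB (-1.57 ± 0.56), PDK1 (0.94 ± 0.38) and GAPDH (-0.82 ± 0.47). At the stricter unadjusted p under 0.05 stood 1304 of all 9888 tested genes. With library totals the calls over all genes moved from 16 higher and 138 lower to 35 and 107, and the median from -0.20 to 0.03. Follicles against skin called 0 of 30 genes and 0 of 9888, with 144 of all genes at an unadjusted p under 0.05 and 0 of the set called in DESeq2. Of the other HIF target genes, RORA was lower in follicles than in epidermis (-3.12 ± 0.72).

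The effect of the Tgf-beta inhibitor was asked within follicle organoids in expansion medium, with 5 libraries with it and 4 without, averaged over the passages. Of 30 tested genes 6 were higher with the inhibitor and 0 lower, and 29 of the 30 differences were positive, with a median of 0.62. Over all 9888 tested genes 2.68% were called (1.92% higher and 0.758% lower), and the median was 0. The 6 were PFKFB3, SLC16A1, ENO2, EGLN3, VEGFA and ADM, so that 1 of 15 glycolytic enzymes was among them.

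PFKFB3 showed the change in every alternative. It stood at 154, 177 and 301 CPM early and 108 and 36.3 CPM later with the inhibitor, and at 33.7 and 24.7 CPM early and 22.2 and 10.97 CPM later without it. All 5 treated libraries lay above all 4 untreated ones, and the difference was 2.49 ± 0.44 (edgeR adjusted p = 0.00273).

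SLC16A1 stood at 144, 86.0 and 95.8 CPM early and 107 and 75.6 CPM later with the inhibitor, and at 20.2 and 55.5 CPM early and 38.7 and 27.8 CPM later without it. The groups did not overlap, and the difference was 1.45 ± 0.30 (edgeR adjusted p = 0.00923). VEGFA stood at 201, 112 and 198 CPM early and 129 and 60.4 CPM later with the inhibitor, and at 20.2 and 49.3 CPM early and 33.6 and 19.0 CPM later without it. It too showed no overlap, with a difference of 2.04 ± 0.48 (edgeR adjusted p = 0.025).

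EGLN3, itself a HIF1A target that helps to destroy HIF1A, stood at 1070, 343 and 801 CPM early and 355 and 85.6 CPM later with the inhibitor. Without it the levels were 32.3 and 125 CPM early and 40.4 and 18.1 CPM later. The lowest treated library lay below the highest untreated one, with a difference of 3.05 ± 0.78 (edgeR adjusted p = 0.0386).

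ADM stood at 910, 216 and 498 CPM early and 360.5 and 125.9 CPM later with the inhibitor. Without it the levels were 13.5 and 100.4 CPM early and 116 and 31.6 CPM later. The difference was 2.45 ± 0.64 (edgeR adjusted p = 0.0412), and the lowest treated library stood just above the highest untreated one. ENO2 rose by 2.68 ± 0.69 (edgeR adjusted p = 0.0386) from 1, 5, 2 and 2 counts without the inhibitor to 16, 4, 34, 15 and 7 counts with it, in libraries of different depth.

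Other members gave values without a call. HK2 gave 1.88 ± 0.52 (adjusted p = 0.0585), NDRG1 1.87 ± 0.62, BNIP3 1.42 ± 0.51, CA9 1.40 ± 0.55 and ALDOA 1.27 ± 0.38 (adjusted p = 0.0794). LDHA gave 0.07 ± 0.32, PKM 0.02 ± 0.38, HIF1A 0.31 ± 0.24 and LDHB, the only negative value, -0.26 ± 0.32.

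1 library at each end set many of these ranges. Extremes were counted for the 31 genes only and not over all genes, so whether they are particular to the set was not tested. Among the 9 follicle organoid libraries, early replicate 1 with the inhibitor held the highest value of 16 of 31 genes. Early replicate 1 without it held the lowest of 15 and later replicate 2 without it the lowest of 13. Mitochondrially encoded genes took 5.35% of counts in the first of these and 15.5 to 26.9% in the other 8, and with those genes left out before scaling the count stayed at 6. That library also had the highest sum of suprabasal markers, 26620 CPM against 3012 to 14040 CPM in the other 8, and the lowest sum of cycling markers, 180 CPM against 224 to 444 CPM. With the inhibitor 2 of 8 suprabasal markers were higher (IVL by 3.22 ± 0.79) and 1 lower (KRT10, -2.24 ± 0.44), and 0 of 5 tested cycling markers were called. The part of these in the members' differences was not tested.

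**Figure D4:**
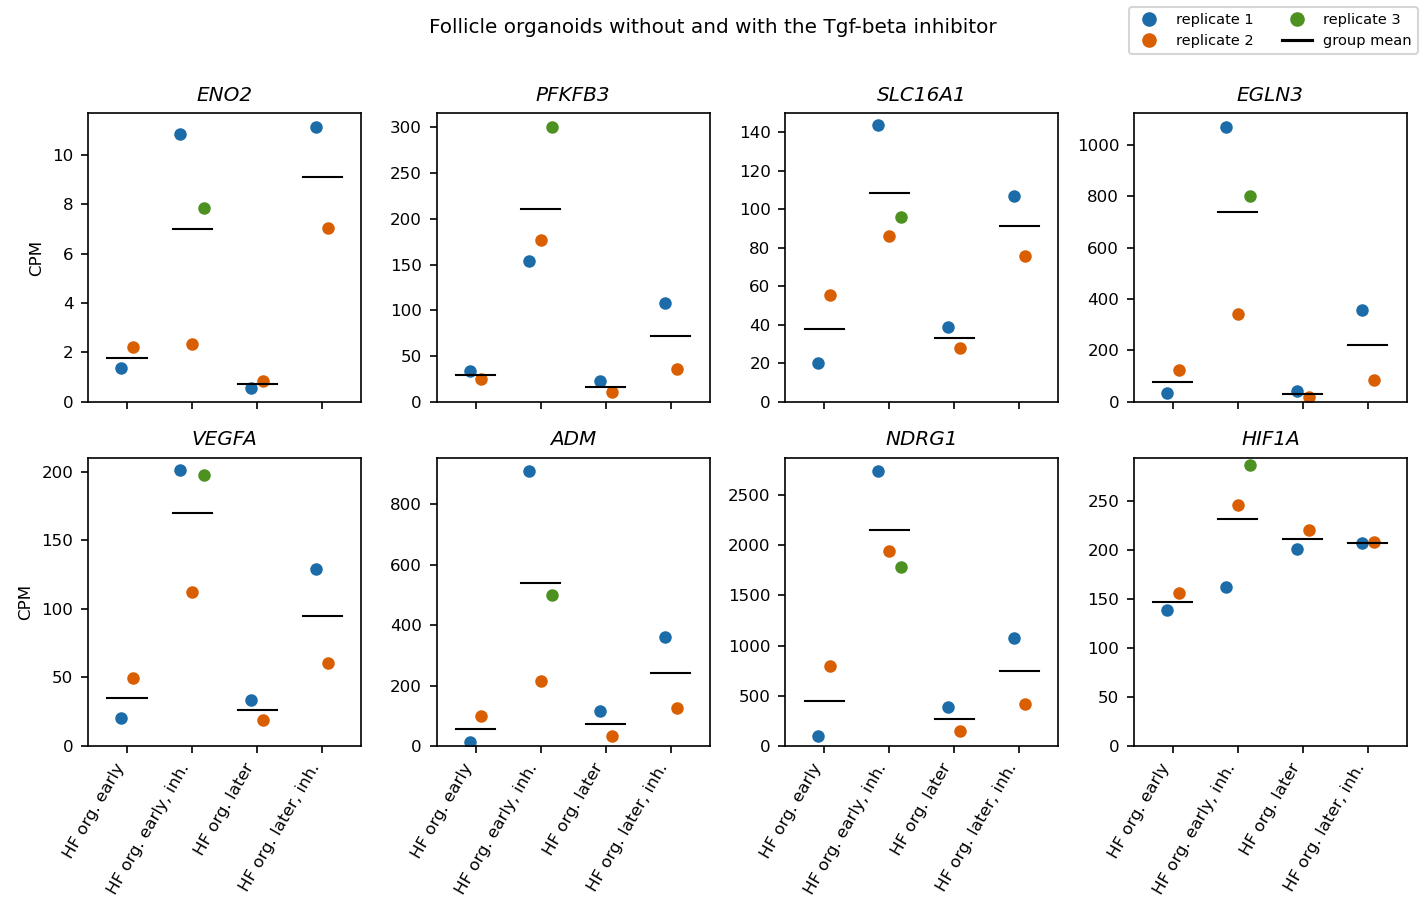
CPM of 8 genes in each follicle organoid library, by passage range and with or without the Tgf-beta inhibitor (inh.), coloured by replicate number, with the group mean as a line. The 6 called genes (ENO2, PFKFB3, SLC16A1, EGLN3, VEGFA, ADM) and NDRG1 are high in the inhibitor groups with wide spread, most of all early, and HIF1A is not.

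Of the neighbouring lists, 1 of 6 other sugar and lactate transport genes was higher with the inhibitor (TXNIP, 2.13 ± 0.39), 1 of 11 HIF pathway regulators (EPAS1, which encodes HIF2A, 1.16 ± 0.29) and 2 of 21 other HIF target genes (the lipid droplet gene HILPDA, 1.79 ± 0.38). None was called among the tested genes of the pentose phosphate, glycogen, citrate cycle and other glycolysis lists. Without 1 library the count of called members fell to 1 (later inhibitor replicate 1, early untreated replicate 1, later untreated replicate 2) or to 3 (early inhibitor replicates 1 and 3, later untreated replicate 1). With library totals it was 3, and the calls over all genes moved from 190 higher and 75 lower to 133 and 116, and the median to -0.13. PFKFB3 was the 1 gene of the 6 called in each of 16 alternatives.

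The inhibitor's effect at later against early passage was tested as an interaction and called 0 of 30 genes and 0 of 9888 (267 of all genes at an unadjusted p under 0.05, and 1 gene, not of the set, in DESeq2). Later against early passage itself called 0 of 30 genes against 0.354% of all tested genes (0.172% higher and 0.182% lower). Of the 30 differences 25 were negative, with a median of -0.34, and all groups overlapped. The lowest were EGLN3 (-1.59 ± 0.74, adjusted p = 0.676), PFKFB3 (-1.15 ± 0.42, adjusted p = 0.464) and NDRG1 (-1.15 ± 0.60, adjusted p = 0.747). Without the filter on low counts these 3 were called, with adjusted p of 0.000223, 0.0422 and 0.0258.

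Interfollicular against follicle organoids, both with the inhibitor, called 0 of 30 genes against 6.36% of all tested genes (5.85% higher and 0.516% lower). The difference was negative in 25 of 30 genes, with a median of -0.42 beside -0.32 over all tested genes (-0.14 with RLE factors). ENO1 stood at 2657 and 2166 CPM in the interfollicular libraries and 3107 to 6240 CPM in the 5 follicle libraries (-0.96 ± 0.42, edgeR adjusted p = 0.248), and ADM at 89.3 and 109 CPM against 125.9 to 910 CPM (-1.88 ± 0.87, adjusted p = 0.286). Neither overlapped. Without the early interfollicular library VEGFA was called higher (2.61, adjusted p = 0.0477), which rests on the later library alone, at 576 CPM. Markers of other cells moved with this comparison: 5 of 6 hair shaft markers (median 2.38) and 3 of 6 fibroblast markers (median 1.79) were higher in interfollicular organoids. The later interfollicular library held 849 CPM of the first and 685.5 CPM of the second list, the early one 136 and 130 CPM, and their part in the differences was not tested. Of the HIF pathway regulators 4 of 11 were higher in interfollicular organoids, with CUL2, the scaffold of the VHL complex, at 3.15 ± 0.70. SUCLA2 (1.29 ± 0.36) and the MYC antagonist MXI1 (1.75 ± 0.51) were also higher, each the 1 called gene of its list.

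The differentiation media together were compared with later follicle organoids in expansion medium without inhibitor. Of 30 tested genes 2 were higher (ENO2, PFKP) and 4 lower (GAPDH, SLC2A1, P4HA1, LDHB), with a median of 0.52. Over the 9732 tested genes listed in these files 14.5% were called (4.39% higher and 10.2% lower), with a median of -0.14. The differentiation files list 18110 named genes against 20444 in the others, so medium and the list used for counting cannot be told apart. The expansion side rests on 2 libraries, and without either of them 3 genes were called.

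ENO2 had 2 counts in each expansion library, at 0.569 and 0.844 CPM. It had 7 to 42 counts in the 6 differentiation libraries, at 11.7 and 89.99 CPM in differentiation medium, 24.3 and 105 CPM without Noggin and R-Spondin-1, and 20.8 and 38.5 CPM also without Forskolin. All lay above expansion medium, with a difference of 5.78 ± 0.87 (edgeR adjusted p = 0.000203). PFKP stood at 547 and 441 CPM in expansion medium, then at 2029 and 2509, 1501 and 2602, and 1709 and 2814 CPM in the 3 media. It rose by 2.15 ± 0.42 (edgeR adjusted p = 0.00203) without overlap.

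GAPDH was lower in every differentiation library. It stood at 1083 and 949.5 CPM in expansion medium and at 452 and 218, 185 and 372, and 210 and 274 CPM in the 3 media. Its groups did not overlap, and it fell by 1.84 ± 0.33 (edgeR adjusted p = 0.000877), while its neighbours in the pathway TPI1 (0.17 ± 0.37), PGK1 (-0.12 ± 0.41) and ENO1 (0.06 ± 0.39) were not called. PKM (0.86 ± 0.48) and PGAM1 (0.69 ± 0.35) were not called either. GAPDH, like PGK1, ENO1 and PKM, is among the genes with fractional counts, and the 2 sets of files differ in the entries counted. The part of either in its fall was not tested.

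SLC2A1 stood at 824 and 381 CPM in expansion medium and at 502 and 222, 75.4 and 167, and 143 and 68.5 CPM in the 3 media. The full differentiation medium overlapped expansion medium, and the difference over all media was -1.84 ± 0.47 (edgeR adjusted p = 0.0125). LDHB stood at 169 and 140.5 CPM against 87.0 and 89.99, 80.3 and 32.4, and 104 and 17.1 CPM. It fell by 1.17 ± 0.38 (edgeR adjusted p = 0.045) without overlap and lost the call in 9 of 16 alternatives. P4HA1, at 1 to 5 counts per differentiation library, fell by 1.99 ± 0.58 (edgeR adjusted p = 0.0266). LDHA gave -0.74 ± 0.37 (adjusted p = 0.181).

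Replicates differed widely within the differentiation media. In the labels' replicate 2, 22, 26 and 23 of the 31 genes were higher than in replicate 1 of the same medium, for the full medium and the successive withdrawals. The same count was not made over all genes, so whether this skew is particular to the set was not tested. EGLN3 stood at 55.2 and 533 CPM in the full medium, 7.30 and 646 CPM without Noggin and R-Spondin-1, and 6.92 and 51.4 CPM also without Forskolin (replicates 1 and 2). SLC16A3 stood at 18.4 and 128, 4.87 and 94.8, and 0 and 21.4 CPM. PKM went the other way in the full medium, at 7995 and 1284 CPM, and was 4976 and 5716 CPM, and 5482 and 4185 CPM, in the others. Without Forskolin both EGLN3 values lay below those of the full medium, and otherwise the ranges of EGLN3 and PKM overlapped between media.

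Suprabasal markers also spread within a medium, from 2577 to 11100 CPM in the full medium, 2570 to 14440 CPM without Noggin and R-Spondin-1 and 2604 to 13370 CPM also without Forskolin. Cycling markers ran from 13.8 to 219 CPM over the 6 libraries, against 224 to 420 CPM in the expansion libraries compared, and 3 of 5 tested cycling markers were lower in differentiation media. Of 8 suprabasal markers 1 was lower and 0 higher. Of 6 fibroblast markers 4 were lower (median -3.97), and of 4 tested hair shaft markers 3 (median -6.25), with 0 higher. Hair shaft genes summed to 0 CPM in the full medium and to 50.6 to 53.8 CPM in the expansion libraries compared. KRT33B and KRT35 of that list are not listed in all files. Of 4 tested muscle and 2 tested endothelial markers 1 each was higher. The part of these markers in the members' differences and spread was not tested.

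**Figure D5:**
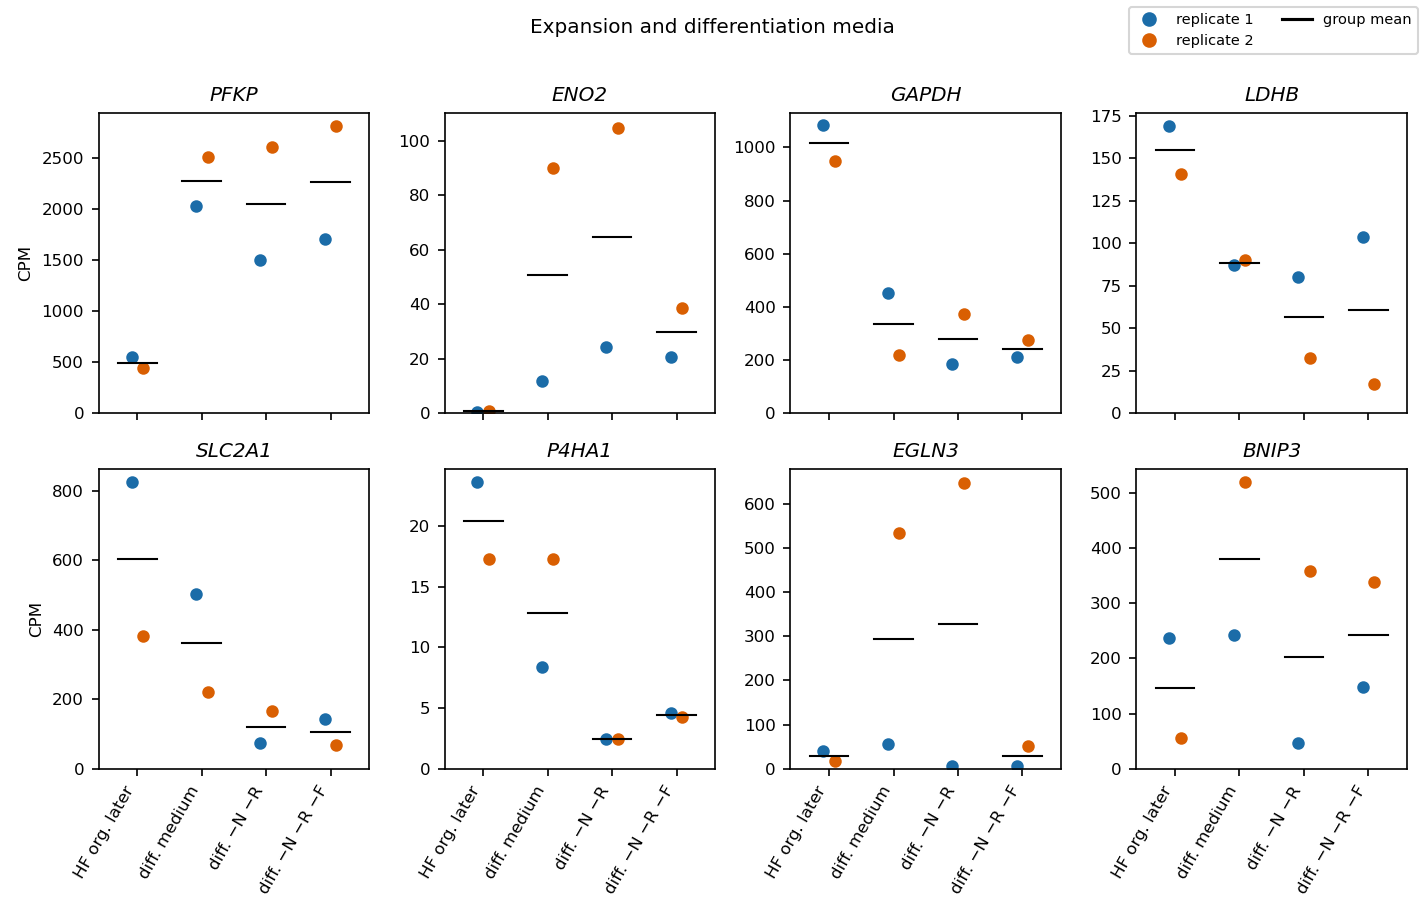
CPM of 8 genes in later follicle organoids without inhibitor in expansion medium and in the 3 differentiation media (diff.; −N −R −F without Noggin, R-Spondin-1 and Forskolin), coloured by replicate number, with the group mean as a line. PFKP and ENO2 are above and GAPDH and LDHB below the expansion libraries in all 6 differentiation libraries, and EGLN3 and BNIP3 differ between replicates as much as between media.

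Withdrawal of Noggin and R-Spondin-1 called 0 of 30 genes and 0 of 9732 (260 of all genes at an unadjusted p under 0.05, and 0 of the set in DESeq2). SLC2A1 had the smallest p of the set, with 502 and 222 CPM in the full medium and 75.4 and 167 CPM without the 2 factors (-1.59 ± 0.65, edgeR adjusted p = 1, unadjusted p = 0.0237), and its groups did not overlap. Further withdrawal of Forskolin also called 0 of 30 and 0 of 9732 (328 at an unadjusted p under 0.05, and 0 of the set in DESeq2). EGLN3 gave -3.67 ± 1.33 and EGLN1 -1.14 ± 0.52, with unadjusted p of 0.0118 and 0.0408, and both overlapped. HIF1A stood at 127 and 162 CPM without Noggin and R-Spondin-1 and at 198 and 283 CPM also without Forskolin (0.73 ± 0.38), without overlap and without a call.

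In the neighbouring lists 5 of 82 tested genes were higher in the differentiation media and 7 lower (14.6%), beside 14.5% of all genes. Of 25 tested genes of pyruvate dehydrogenase and the citrate cycle 1 was higher (PDK3, a further kinase of pyruvate dehydrogenase, 1.43 ± 0.37) and 3 lower, with SDHD, a succinate dehydrogenase subunit, at -1.84 ± 0.35. Of 8 glycogen enzymes the phosphorylase PYGB was higher (1.26 ± 0.34) and the phosphoglucomutase PGM1 lower (-1.42 ± 0.32). Of 6 pentose phosphate enzymes TALDO1 was higher (0.99 ± 0.31) and RPE lower (-0.90 ± 0.26). Of 11 HIF pathway regulators 2 were lower, with TCEB1 at -1.12 ± 0.28, and of 21 other HIF target genes 2 were higher, with the transcription factor NFIL3 at 1.62 ± 0.49. None of the 6 other sugar and lactate transport genes and none of the 5 other glycolysis genes was called.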

How the data were processed

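The deposited files hold estimated counts per gene and library, some with fractions, made by the authors from CEL-seq2 libraries (3′ end counting). Per the submitters' processing notes, BWA 0.6.2-r126 and the build CanFam3.1 were used. For the annotation, the counting tool and the treatment of molecular barcodes nothing is stated in the labels. Counts were rounded to whole numbers. Entries that name no gene (0.461 to 2.158% of counts) were left out.

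All 23 libraries entered a single edgeR 4.0.16 fit in R 4.3.3, with a mean per group, TMM scaling and the default filter on low counts, which left 9888 genes (9732 for comparisons with differentiation files). The quasi-likelihood F test was adjusted over all of these by Benjamini and Hochberg. Interfollicular organoids, with 1 library per group, are assumed to vary like the other groups. Ratios within a library used counts plus 0.5. Alternatives were RLE factors, library totals, no low-count filter (counts above 0), no mitochondrially encoded genes, the entries of all 23 files, a replicate block, the compared groups alone, DESeq2 1.42.0 and each library left out. Scripts were tested on simulated data. Promoter motifs were not analysed here.

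The members and lists were chosen with earlier results of these data known. Genes named are all members, with library values for those called or in a named pair, and of each neighbouring list the called gene with the smallest p in each direction. Some genes that this rule names are not reported here.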

Additional observations from a re-analysis of the deposited data

How the results depend on the processing

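Of 50 calls on members and LDHA, 19 held in every alternative: 13 of 23 in follicle organoids against follicles, 3 of 14 in interfollicular organoids against epidermis, 1 of 6 for the inhibitor, 2 of 6 for differentiation and 0 of 1 between follicles and epidermis. No such call reversed. The cause of the lost calls was not tested, except that leaving out a library leaves fewer samples. Depth limits interfollicular epidermis and ENO2, PFKL, SLC16A3, PFKFB4 and P4HA1, which had few counts. The planned promoter motif search was not run.

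The number of members called became 1 for the difference between sources with library totals, in the compared groups alone and in DESeq2. Between follicles and epidermis it became 0 with RLE factors, 2 in the compared groups alone and 3 in DESeq2, and between epidermis and skin 1 in DESeq2. For the inhibitor it became 3 with library totals. Without the low-count filter it became 12 for the inhibitor, 3 for later against early passage, 1 for interfollicular against follicle organoids, 10 for differentiation and 1 for Forskolin withdrawal. More genes were tested without that filter, and the share of them called is not given here. These member counts therefore have no background beside them. In the compared groups alone it became 3 for differentiation. Calls over all genes without that filter were 478 (follicles against epidermis), 2 (follicles against skin), 285 (epidermis against skin), 639 (inhibitor), 39 (its interaction with passage), 171 (passage), 12 (Noggin and R-Spondin-1) and 20 (Forskolin). In the compared groups alone they were 465, 10 for follicles against skin, 21 for passage and 236 for differentiation, and DESeq2 called 1 for the interaction.

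Leaving out single libraries gave 14 to 23 members for follicle organoids against follicles, 3 to 13 for interfollicular organoids against epidermis, 0 to 0 for follicles against epidermis, 1 to 7 for the inhibitor, 0 to 1 for interfollicular against follicle organoids and 3 to 9 for differentiation. Over all genes the ranges were 1389 to 2954, 416 to 914, 81 to 676 for the difference between sources, 113 to 170, 64 to 109 for epidermis against skin, 109 to 303, 9 to 53 for passage, 54 to 818 and 413 to 1676. The ALDOA to ALDOC difference ran from -0.07 to 0.11 and the PFKFB3 to PFKFB4 difference from -0.57 to 0.30, both through 0.

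Same-numbered libraries share only a number in the labels. Deviations from group means of same-numbered libraries correlated from 0.34 to 0.44 among differentiation groups, 0.05 to 0.12 among tissues and -0.25 to 0.09 among expansion groups. With the replicate block the number of members called was 21, 14, 4 and 5 in the first 2 comparisons, for the inhibitor and for differentiation, and 0 between follicles and epidermis. The calls over all genes under the block are not given here for these comparisons, so these counts have no background beside them. Over all genes the block moved passage from 35 to 18. A fit of the differentiation groups alone, chosen after seeing the data, called 0 members and 0 genes for each withdrawal, with and without the block.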
